A study of Homo sapiens with 2 samples.

Results

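The 10 genes described here encode receptors and core proteins of autophagy. They were chosen by symbol (SQSTM1, NBR1, GABARAP, GABARAPL1, GABARAPL2, MAP1LC3B, ULK1, ATG5, ATG7 and BECN1), and each was found once among the 10987 genes of the deposited table. RNA sequencing compared 2 libraries labelled as THP1 cells, 1 treated with bort (bortezomib, a reversible inhibitor of the proteasome) for 24 h and 1 untreated. THP1 is an established human monocytic leukaemia cell line carrying the MLL-AF9 fusion. The dose given to the sequenced culture, and whether the untreated culture received solvent, are not given in the sources used here. With 1 library per condition there is no spread between replicates, so no p-value is given and every difference is one between 2 libraries, not between conditions.

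Values are FPKM, the fragments of a gene scaled to the length of its transcript and to the mapped fragments of the library. Levels can be compared between genes within a library only roughly, as this scaling leaves out GC content and fragments that fit more than 1 gene. The number of reads behind each value is unknown, and no counting error can be given. Fold changes were taken on the log2(FPKM + 1) scale, bort-treated minus untreated, and this scale makes differences between low values look smaller than they are. A gene was counted as higher or lower from a 2-fold difference on that scale.

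Macroautophagy encloses cytoplasm in a double membrane, the autophagosome, and delivers it to the lysosome. The ULK complex starts the process, a class III PI3-kinase complex built around Beclin 1 marks the membrane, and a ubiquitin-like conjugation pathway that includes ATG7 and ATG5 attaches proteins of the ATG8 family (the LC3 and GABARAP proteins) to lipid on it. Receptors such as p62, the product of SQSTM1, and NBR1 bind both ubiquitin and ATG8 proteins and thereby bring ubiquitinated cargo into the autophagosome. The proteasome and autophagy are the main routes by which cells degrade ubiquitinated proteins, and p62 gathers in inclusions when the proteasome is blocked.

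The labelled cell type was checked against marker genes. All 12 erythroid markers were listed, with a summed level of 4643 FPKM untreated and 3721 FPKM bort-treated. The highest was the fetal globin gene HBG1, at 1487 and 1536 FPKM. Of 12 monocytic and myeloid markers 6 were listed, summing to 24.8 and 64.4 FPKM, and the highest was LYZ at 7.61 and 28.7 FPKM. The defining monocytic and myeloid genes CD14, CSF1R and MPO were not listed. These levels go against a monocytic line, so the libraries are named here by their labels. In the bort-treated library 4 of the 12 erythroid markers were lower by 2-fold or more, beside 10.2% of all genes. Of the 6 listed monocytic and myeloid markers 2 were higher by 2-fold or more, beside 8.08% of all genes. The median log2 fold change was -0.86 for the erythroid and 0.81 for the monocytic and myeloid markers. With the trend with GC content removed (described further on) these medians were -0.28 and 1.25, and the markers past 2-fold were not all the same. The part of these shifts in the differences below was not tested, and in bulk RNA fewer cells of a type and less RNA per cell cannot be told apart.

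In the bort-treated library 3 of the 10 genes were higher by 2-fold or more, 0 were lower by 2-fold, and 7 lay within 2-fold. Of all 10987 genes, 8.08% were higher and 10.2% were lower by at least 2-fold. The higher genes were 44.1% of those past 2-fold, and 54.3% once the 20 most abundant genes were left out of the library totals used for scaling. The 3 genes were the receptor SQSTM1, the ATG8 family gene GABARAPL1 and the kinase ULK1. The median log2 fold change of the 10 genes was 0.46, against 0.0049 over all genes. In sign, 7 genes were higher (ATG5 not with the trend with GC content removed, described further on) and 3 lower (GABARAP, BECN1 and ATG7). Over the table, 5526 of the 10987 genes were higher in sign and 5461 lower. With 10 genes, 7 higher in sign is not far from that share.

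**Figure D1:**
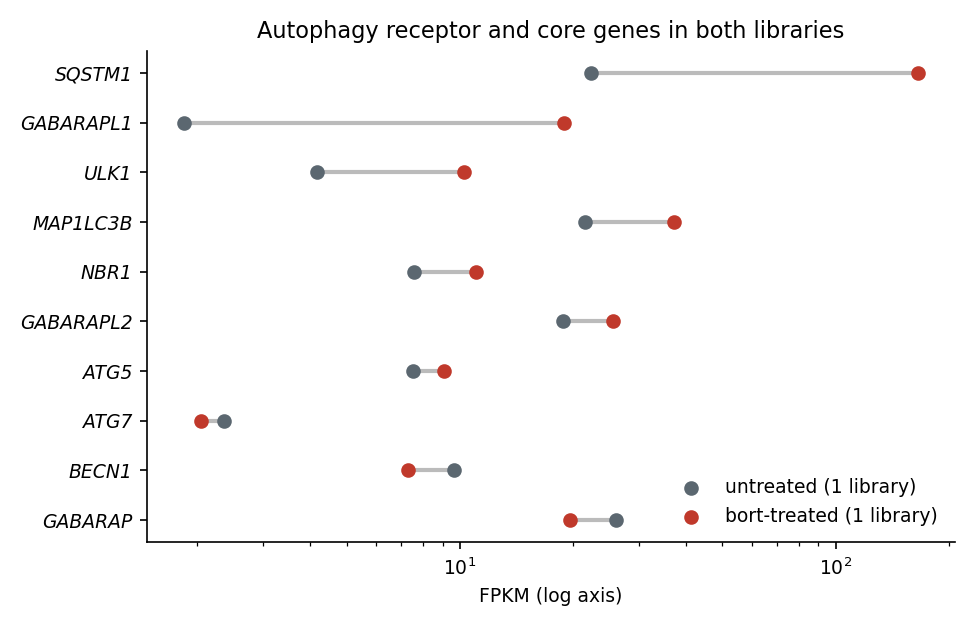
FPKM of the 10 genes (log axis) with 1 point per library (grey untreated, red bort-treated), ordered by fold change. SQSTM1 and GABARAPL1 have the widest gaps, from 22.3 to 165.8 FPKM and from 1.84 to 18.9 FPKM, while ATG7, BECN1 and GABARAP are lower in the bort-treated library.

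The receptors differed in size of change. SQSTM1 (ENSG00000161011.19_3, chromosome 5) encodes p62, a receptor that also binds KEAP1, the inhibitor of the transcription factor NRF2. It was at 22.3 FPKM untreated and 165.8 FPKM after bort, a 7.44-fold higher FPKM and a log2 fold change of 2.84. By level it ranked 1920 among all genes in the untreated library and 142 in the bort-treated library. By log2 fold change it ranked 20 of the 10987 genes. NBR1 (ENSG00000188554.13_2, chromosome 17), a receptor of similar domain layout that acts together with p62, was at 7.54 and 11.0 FPKM. Its log2 fold change was 0.49, short of 2-fold. The ratio of SQSTM1 to NBR1 in FPKM was thus 2.95 in the untreated library and 15.0 in the bort-treated library.

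Among the 3 genes nearest to SQSTM1 in the plane of the log2(FPKM + 1) levels of both libraries were DDIT3, at a distance of 0.70 log2 units, and JUN, at 0.81. DDIT3, the stress-induced factor CHOP, was at 13.4 and 153.8 FPKM, and JUN, an AP-1 subunit, at 15.3 and 107.7 FPKM. Such likeness rests on 2 libraries alone.

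**Figure D2:**
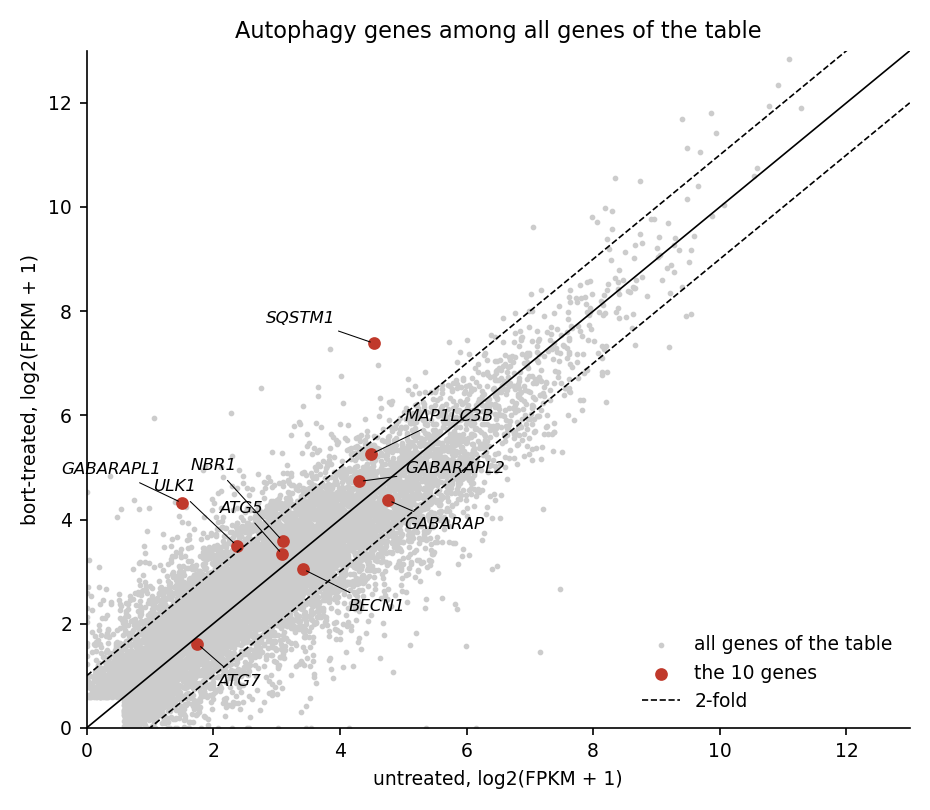
Levels of all 10987 genes in the untreated library (horizontal) and the bort-treated library (vertical), both as log2(FPKM + 1), with the 10 genes in red, the diagonal and dashed 2-fold lines. SQSTM1, GABARAPL1 and ULK1 lie above the upper 2-fold line, with ULK1 close to it at a log2 fold change of 1.13, and none of the 10 lies below the lower line.

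The ATG8 family genes of the list showed different changes, and the GABARAP genes had to be told apart by sequence. GABARAP, GABARAPL1 and GABARAPL2 each have 351 coding bases before the stop codon in GENCODE 29. GABARAP and GABARAPL1 share 76.6% of these bases, GABARAP and GABARAPL2 62.1%, and the longest run common to GABARAP and GABARAPL1 is 14 bases. The last 30 coding bases (positions 322 to 351 from the start codon, stop codon left out) are shown because they hold the glycine codon at which ATG4 proteases expose the lipid attachment site, and show how often the 3 genes differ. Capitals mark the 15 positions at which the 3 genes are not all alike.
GABARAP: gcctacagTgACgaAaGTGTCtACggTCTG
GABARAPL1: gcctacagTgATgaGaGTGTCtATggGAAA
GABARAPL2: gcctacagCgGAgaGaACACTtTTggCTTC

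GABARAPL1 (ENSG00000139112.10_3, chromosome 12) was at 1.84 FPKM untreated and 18.9 FPKM after bort, a 10.3-fold higher FPKM and a log2 fold change of 2.81. By log2 fold change it ranked 22 of all genes. Its processed pseudogene GABARAPL3, not listed in the table, matches the GABARAPL1 coding sequence at 95.4% of the aligned bases, with a shared run of 67 bases, so some fragments could fit either. No other protein-coding gene overlaps GABARAPL1.

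GABARAP (ENSG00000170296.9_3, chromosome 17), the founding gene of its subfamily, was at 26.1 and 19.7 FPKM, a log2 fold change of -0.39. It was the most abundant ATG8 family gene in the untreated library and the third in the bort-treated library. A protein-coding gene annotated on its strand, AC120057.2, covers 30.5% of the exonic bases of GABARAP, so its value is uncertain. GABARAPL2 (ENSG00000034713.7_2, chromosome 16) was at 18.8 and 25.6 FPKM, a log2 fold change of 0.43. GABARAP and GABARAPL2 therefore lay within 2-fold, in opposite directions. The ratio of GABARAP to GABARAPL1 in FPKM was 14.1 in the untreated and 1.04 in the bort-treated library.

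MAP1LC3B (ENSG00000140941.12_2, chromosome 16) encodes LC3B, whose lipid-bound form is the usual marker of autophagosomes. It was at 21.5 and 37.2 FPKM, a log2 fold change of 0.76, which is 1.70-fold on this scale and short of 2-fold. At a threshold of 1.5-fold it was the single further gene of the 10 to count as higher, where 20.8% of all genes did. The retrogene MAP1LC3B2, at 0.397 and 0.728 FPKM, matches the coding bases of MAP1LC3B at all but 2 of 375 positions, so the division of fragments between them is uncertain.

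The 5 listed ATG8 family genes summed to 68.6 FPKM untreated and 102.1 FPKM after bort, a ratio of 1.49. GABARAPL1 made up 2.69% of the sum in the untreated library and 18.5% in the bort-treated library. GABARAP made up 38.0% and 19.3%, MAP1LC3B 31.3% and 36.4%, and GABARAPL2 27.4% and 25.0%. The largest gains in FPKM were 17.1 for GABARAPL1 and 15.7 for MAP1LC3B. MAP1LC3A and MAP1LC3C were not listed.

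Among the genes that start autophagosome formation, ULK1 and BECN1 differed. ULK1 (ENSG00000177169.9_3, chromosome 12), the kinase that AMPK activates and mTORC1 inhibits, was at 4.17 and 10.3 FPKM. Its log2 fold change was 1.13, and it ranked 654 of all genes by it. BECN1 (ENSG00000126581.12_3, chromosome 17), which encodes Beclin 1, was at 9.65 and 7.28 FPKM, a log2 fold change of -0.36. On the opposite strand PSME3, a subunit gene of a proteasome activator, was at 42.1 and 7.78 FPKM and shares 300 exonic bases (4.68%) with BECN1. CNTD1, also on the opposite strand and not listed, covers 12.4% of the exonic bases of BECN1. The paper describes a stranded library kit and the sample labels another kit, so it is uncertain whether reads of these genes could be told apart by strand.

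ATG5 and ATG7, of the conjugation machinery, lay within 2-fold. ATG5 (ENSG00000057663.14_3, chromosome 6), which is joined to ATG12 to form the ligase of the ATG8 proteins, was at 7.52 and 9.06 FPKM. Its log2 fold change of 0.24 turned to -0.23 when the trend with GC content was removed, as described next. ATG7 (ENSG00000197548.12_2, chromosome 3), the activating enzyme of both ATG12 and the ATG8 proteins, was at 2.36 and 2.06 FPKM, a log2 fold change of -0.14. It was the lowest of the 10 genes in the bort-treated library, and GABARAPL1 the lowest in the untreated library. On the opposite strand SQSTM1 shares 20.7% of its exonic bases with MRNIP, at 3.66 and 2.27 FPKM, and ATG7 shares 18.1% with VGLL4, at 3.06 and 3.33 FPKM. MRNIP was low beside SQSTM1, and VGLL4 was at a similar level to ATG7. SQSTM1 also shares 1.37% of its exonic bases with MGAT4B on the opposite strand, at 18.1 and 14.9 FPKM.

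Over the table, fold changes were lower where transcripts held more G and C. The Spearman correlation with GC content was -0.49 across 10907 genes with a match in GENCODE 29. Genes share their library, so this is a description. Transcripts of ATG5 had a GC content of 39.4%, in bin 1 of 10 equal bins of genes by GC content, and the median log2 fold change of that bin was 0.54. ULK1, at 64.1%, lay in bin 10, where the median was -0.66, and SQSTM1, at 58.8%, in bin 8 with a median of -0.33. GABARAPL1, at 50.8%, lay in bin 6, with a median of -0.11. With the trend removed, the log2 fold changes were 3.22 for SQSTM1, 2.90 for GABARAPL1 and 1.74 for ULK1, so that all 3 remained past 2-fold.

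The other genes of the pathway came from 8 lists of 78 genes in all, the 10 included, of which 74 were listed. ULK2, MAP1LC3A, MAP1LC3C and RETREG1 were not listed. Of the 74 genes 18 were higher and 1 was lower at the 2-fold threshold, with a median log2 fold change of 0.24. Of the 64 that are not among the 10 genes, 15 (23.4%) were higher and 1 was lower, beside the 8.08% and 10.2% of all genes. The lists were chosen with earlier results of these data known, so these shares are a description only. With the trend with GC content removed, 14 of the 74 were higher and 0 lower, where 777 of 10907 genes were higher and 661 lower over the table. In that setting TFE3 and WDR45 passed 2-fold, while ATG12, CALCOCO2, CCPG1, NRBF2, PRKAA1 and TAX1BP1 fell short of 2-fold, and so did TEX264, the single lower gene.

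Of the 13 receptors listed, 5 were higher and 1 was lower, beside 8.08% and 10.2% of all genes. The median log2 fold change of the 13 was 0.77. Apart from SQSTM1 the higher receptors were BNIP3L, TAX1BP1, CALCOCO2 and CCPG1. BNIP3L, a mitophagy receptor that clears mitochondria from maturing red cells, was at 11.1 and 40.5 FPKM, a log2 fold change of 1.78. TAX1BP1 and CALCOCO2 (NDP52), receptors of ubiquitinated cargo, were at 8.19 and 20.7 FPKM and at 5.68 and 13.7 FPKM. CCPG1, a receptor for the endoplasmic reticulum, was at 1.91 and 5.24 FPKM. TEX264, also a receptor for the endoplasmic reticulum, was the lower gene, at 5.58 and 1.61 FPKM, a log2 fold change of -1.33. NCOA4, the ferritin receptor and the most abundant of these genes in the untreated library, was at 33.7 and 61.1 FPKM, short of 2-fold. BNIP3L and NCOA4 have known roles in erythroid cells. The erythroid factors GATA1 (161.3 and 48.7 FPKM) and KLF1 (147.1 and 17.4 FPKM) were lower in the bort-treated library, and the part of this in the receptor values was not tested.

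In the ULK complex, 2 of the 4 listed genes were higher, where 8.08% of all genes were. RB1CC1, the scaffold FIP200, was at 8.40 and 28.7 FPKM, a log2 fold change of 1.66, and ATG101, the most abundant in the untreated library, was at 20.6 and 10.9 FPKM (-0.85). In the class III PI3-kinase complex 2 of 8 were higher, ATG14 (1.51 and 5.10 FPKM) and NRBF2 (10.6 and 22.9 FPKM), subunits of its autophagy form. NRBF2 passed 2-fold by little, with a log2 fold change of 1.05, and was the most abundant of these 8 genes in both libraries.

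Among 10 genes of ATG9, ATG2, WIPI and linked membrane proteins 3 were higher, beside 8.08% of all genes. VMP1, a membrane protein of the endoplasmic reticulum needed for autophagosome formation, was at 8.70 and 54.9 FPKM, a log2 fold change of 2.52. WIPI1, which binds the lipid made by the PI3-kinase, was at 1.71 and 6.00 FPKM, and ATG9B at 0.246 and 2.49 FPKM. WDR45 (4.93 and 10.7 FPKM) fell just short of 2-fold, at 0.98, and passed it under 6 of the 8 other settings that keep the threshold. The most abundant gene of the list in the untreated library, WDR45B, was at 15.8 and 15.1 FPKM. Of the 10 conjugation genes 1 was higher, near the 8.08% of all genes. It was ATG12 (3.27 and 9.13 FPKM, a log2 fold change of 1.25), and the median of the 10 conjugation genes was -0.095. The most abundant of these was the protease gene ATG4D, at 17.5 and 13.1 FPKM.

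On the FPKM + 1 scale 0 of the 10 genes for fusion of the autophagosome with the lysosome passed 2-fold, where 8.08% of all genes were higher and 10.2% lower. With 10 genes, a count of 0 is not far from these shares. The median log2 fold change of the fusion genes was -0.0097. STX17, the SNARE of the autophagosome, came nearest, at 0.99, from 1.96 to 4.87 FPKM, and passed 2-fold under 5 of the 8 other settings, the 3 pseudocounts among them. EPG5, a tether for fusion, was at 0.949 and 2.37 FPKM and passed it under 2, with a pseudocount of 0.1 FPKM and with none. VAMP8, the lysosomal partner of STX17 and the most abundant gene of the list, was at 115.2 and 78.4 FPKM.

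Of the 14 regulators 4 were higher and 0 lower on the FPKM + 1 scale, beside 8.08% and 10.2% of all genes. DDIT4, an inhibitor of mTORC1 induced by stress, was at 11.6 and 82.0 FPKM, a log2 fold change of 2.72. FOXO3, a transcription factor for autophagy genes, was at 3.79 and 11.0 FPKM, SESN2, a sensor upstream of mTORC1, at 9.02 and 23.7 FPKM, and PRKAA1, a catalytic subunit of AMPK, at 3.48 and 8.35 FPKM. KEAP1, the p62 partner, was the most abundant regulator in the untreated library, at 29.7 FPKM, and was at 17.5 FPKM in the bort-treated library. A pair of regulators with low levels were lower by 2-fold only with smaller pseudocounts. TFEB, a transcription factor for lysosomal and autophagy genes, was at 1.11 and 0.272 FPKM and was called lower with pseudocounts of 0.1 FPKM, 0.5 FPKM and none. BCL2, which binds Beclin 1, was at 0.803 and 0.263 FPKM and was called lower with 0.1 FPKM and none. The ratio of SQSTM1 to KEAP1 in FPKM was 0.751 in the untreated and 9.46 in the bort-treated library.

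**Figure D3:**
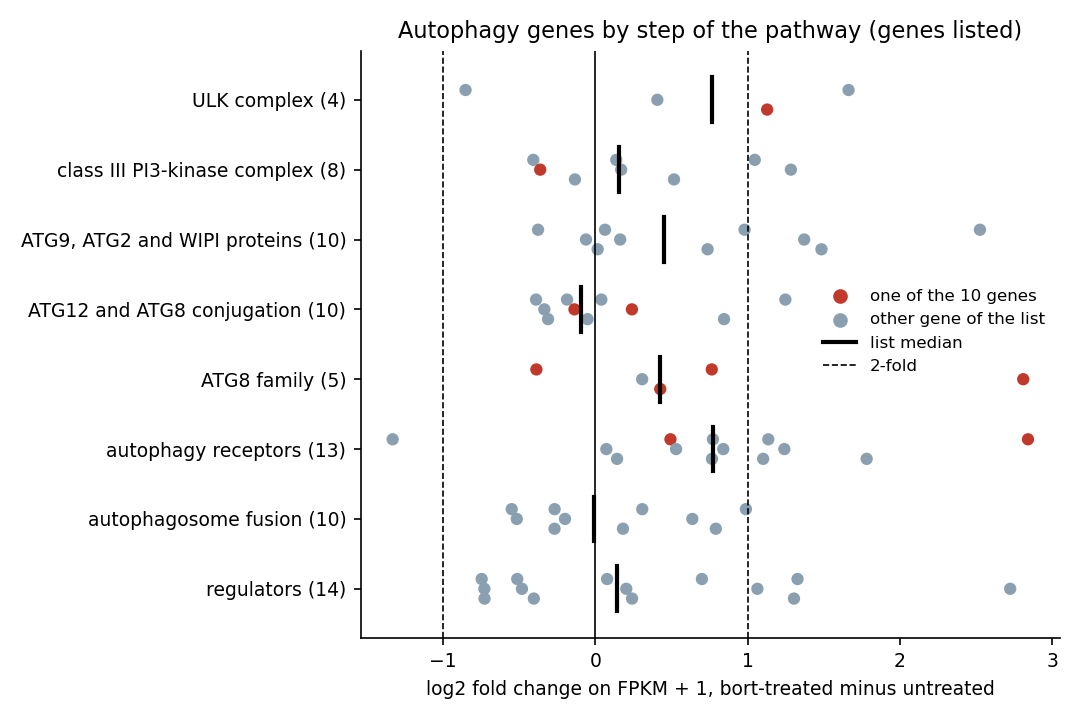
Log2 fold changes on FPKM + 1 of the listed autophagy genes, by step of the pathway, with the number of genes in brackets, list medians as bars and dashed lines at 2-fold. The receptors and the ULK complex both have a median of 0.77 (0.66 and 0.90 with the trend with GC content removed), and the fusion genes, with a median of -0.0097, have no point past 2-fold on this scale.

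Promoters of the 10 genes were searched for 4 motifs of stress-responsive factors on both strands. RefSeq (GRCh38.p14) gave 14 windows for the 10 genes, each from 250 bases before to 50 bases after an annotated start. The motifs were the core of the antioxidant response element bound by NRF2 (TGACNNNGC, in 13.3% of 35116 windows), the palindromic E-box bound by TFEB among others (CACGTG, 7.26%), the core of the amino acid response element bound by ATF4 and CHOP (TGATGNAA, 3.62%) and a heat shock element of 3 units (0.490%). A single match was found, an antioxidant element core in the window of MAP1LC3B that begins 46 bases before the start. It is shown in capitals with its flanks at chr16:87392280-87392308 on the plus strand, as the one match among the 14 windows.
MAP1LC3B: gcgagtcaccTGACCAGGCtgcgggctga

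The windows of SQSTM1, GABARAPL1 and ULK1 held none of the 4 motifs. This says only that these letters are not in these windows.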

How the data were processed

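RNA sequencing of 1 bort-treated and 1 untreated library, both labelled THP1, was analysed, grouped by the treatment label. Per the study's methods and the labels, reads were trimmed, aligned to GRCh37 with HISAT2 2.0.4 and assembled with StringTie 1.2.3. The authors deposited these abundances as FPKM, 1 value per gene and library. The annotation is not given in the sources used here. Each of the 10987 genes reached at least 0.501 FPKM in 1 library, so genes lower in both are not in the table. FPKM summed to 210026 in the untreated and 221529 in the bort-treated library. Depth is unknown.

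A pseudocount of 1 FPKM was added before log2. With 1 library per condition no test was run. Genes and lists were chosen with earlier results of these data known. The genes named are the 10, every other list gene past 2-fold, the most abundant gene of each list, the 3 genes nearest to SQSTM1 (1 of them is not reported here) and marker genes. STX17, EPG5, WDR45, WDFY3, TFE3, TFEB, BCL2, the markers GATA1 and KLF1 and genes on the opposite strand were named after their values were seen. GC content was pooled over the transcripts of each gene in GENCODE 29 (GRCh38, another build than the files'), for 99.3% of genes, and the trend was removed by lowess with a span of 0.3. The calculations were tested on simulated data. Python 3.11.15, numpy 2.4.6, pandas 2.3.3, statsmodels 0.14.6, Biopython 1.88 and matplotlib 3.10.9 were used.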

Additional observations from a re-analysis of the deposited data

How the results depend on the processing

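No paired analysis was possible because there is a single library per group, nor was any library left out. The other settings were pseudocounts of 0.1 FPKM, 0.5 FPKM and none, 3 scalings, a filter of 1 FPKM in both libraries, removal of the trend with GC content and thresholds of 1.5-fold and 4-fold.

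Over the 8 settings that keep the threshold, 3 of the 10 genes were higher and 0 lower. The log2 fold change of SQSTM1 ranged from 2.83 to 3.22, that of GABARAPL1 from 2.80 to 3.36 and that of ULK1 from 1.12 to 1.74. ATG5 was reversed to -0.23 with the GC trend removed, and the other genes kept their sign under all 8. Of the 74 autophagy genes, 3 were lower with a pseudocount of 0.1 FPKM or none, 2 with 0.5 FPKM and 0 with the GC trend removed, against 1 as reported. With the threshold at 1.5-fold, 29 were higher and 5 lower. With it at 4-fold, 4 were higher and 0 lower. Over all genes, 1576 were higher with a pseudocount of 0.1 FPKM, 1654 higher and 1708 lower with none (genes at 0 left out), and 661 lower with the GC trend removed, against 888 and 1125 as reported. The thresholds of 1.5-fold and 4-fold gave 2282 higher with 2378 lower, and 92 higher with 135 lower. Apart from the thresholds and left-out genes, the cause was not tested. Without read counts, the counting error of genes with low FPKM, such as GABARAPL1 and ATG9B in the untreated library, is unknown.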
